A study of Mus musculus with 19 samples.

Results

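The genes described here are 37 genes of macrophages, of the red pulp of the spleen and of the recycling of iron from red cells. They were measured in whole mouse spleen, which the sample titles call splenic cells, on 19 Affymetrix arrays, 1 per animal. A gene was taken as measured where a probe set was annotated to its symbol alone, and where a gene had several such probe sets the one with the highest mean over the 19 arrays was used. All 37 genes were found in this way, on 38 probe sets, among 22180 genes with such a probe set. Only Maf had 2 probe sets.

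The animals carry human HGAL, a germinal centre B cell protein, as a conditional transgene at the Rosa26 locus, switched on by one of 3 Cre drivers. Aid is active in germinal centre B cells, Mb1 from early stages of the B lineage, and Sca1 in blood stem and progenitor cells. The 5 groups were tumour-bearing spleens of Rosa26-HGAL+Aid-Cre mice (4 arrays), of Rosa26-HGAL+Mb1-Cre mice (5 arrays) and of Rosa26-HGAL+Sca1-Cre mice (4 arrays), pre-tumoral spleens of Rosa26-HGAL+Sca1-Cre mice (3 arrays) and spleens of Wild Type mice (3 arrays). No control group carried a Cre driver without HGAL, or HGAL without a Cre driver, so Cre and HGAL are not separated. The mice were kept in a conventional facility with exposure to common pathogens. Age, sex and the share of tumour cells in each spleen are not given in the labels, and the labels call the arrays of a group biological replicates. Each Cre line is compared with the same 3 wild-type arrays.

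Red pulp macrophages engulf old red cells, break down haem with Hmox1 and Blvrb, and return the iron to the blood through the exporter Slc40a1. Their development depends on the transcription factor Spic and on signalling through the receptor Csf1r. Other splenic macrophages line the marginal zone, where Marco and Siglec1 mark separate populations, or clear dying B cells in the germinal centre with receptors such as Mertk and Timd4 and with complement C1q.

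All values are log2 expression as the authors deposited it, and a difference of 1 is a doubling. Array medians lay between 5.23 and 5.40, and the 40th percentile of each array, taken here as the edge of dim signal, lay between 4.72 and 4.90. Of the 37 genes, Siglec1 in wild type, with a mean of 4.81, and Gpnmb in pre-tumoral spleens, with a mean of 4.86, had a group mean in that range. The red pulp markers Spic, Slc40a1, Vcam1 and Adgre1 had wild-type means of 7.77, 8.41, 8.36 and 7.53, all above it. Among the marginal zone markers, Marco, at 6.38 in wild type, was also above it, while Cd209b, at 5.16 in wild type, and Siglec1 were near it. Each gene is compared with itself across arrays, since probe sets of different genes do not share a scale. In RNA from whole spleen, fewer cells of a type and less RNA per cell cannot be told apart.

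Most of the 37 genes stood highest in the Mb1-Cre tumour spleens. Their difference from wild type was above 0 for 35 of 37 genes, with a median of 0.53, against a median of 0.00 over all 22180 genes. In the Aid-Cre and Sca1-Cre tumour spleens and the pre-tumoral spleens the corresponding medians were 0.10, 0.14 and 0.15, with 25, 23 and 22 of 37 genes above 0. Between tumours, the median of Aid-Cre minus Mb1-Cre was -0.53, that of Mb1-Cre minus Sca1-Cre was 0.53 and that of Aid-Cre minus Sca1-Cre was -0.10. These comparisons share arrays, so their medians are not separate observations.

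**Figure D1:**
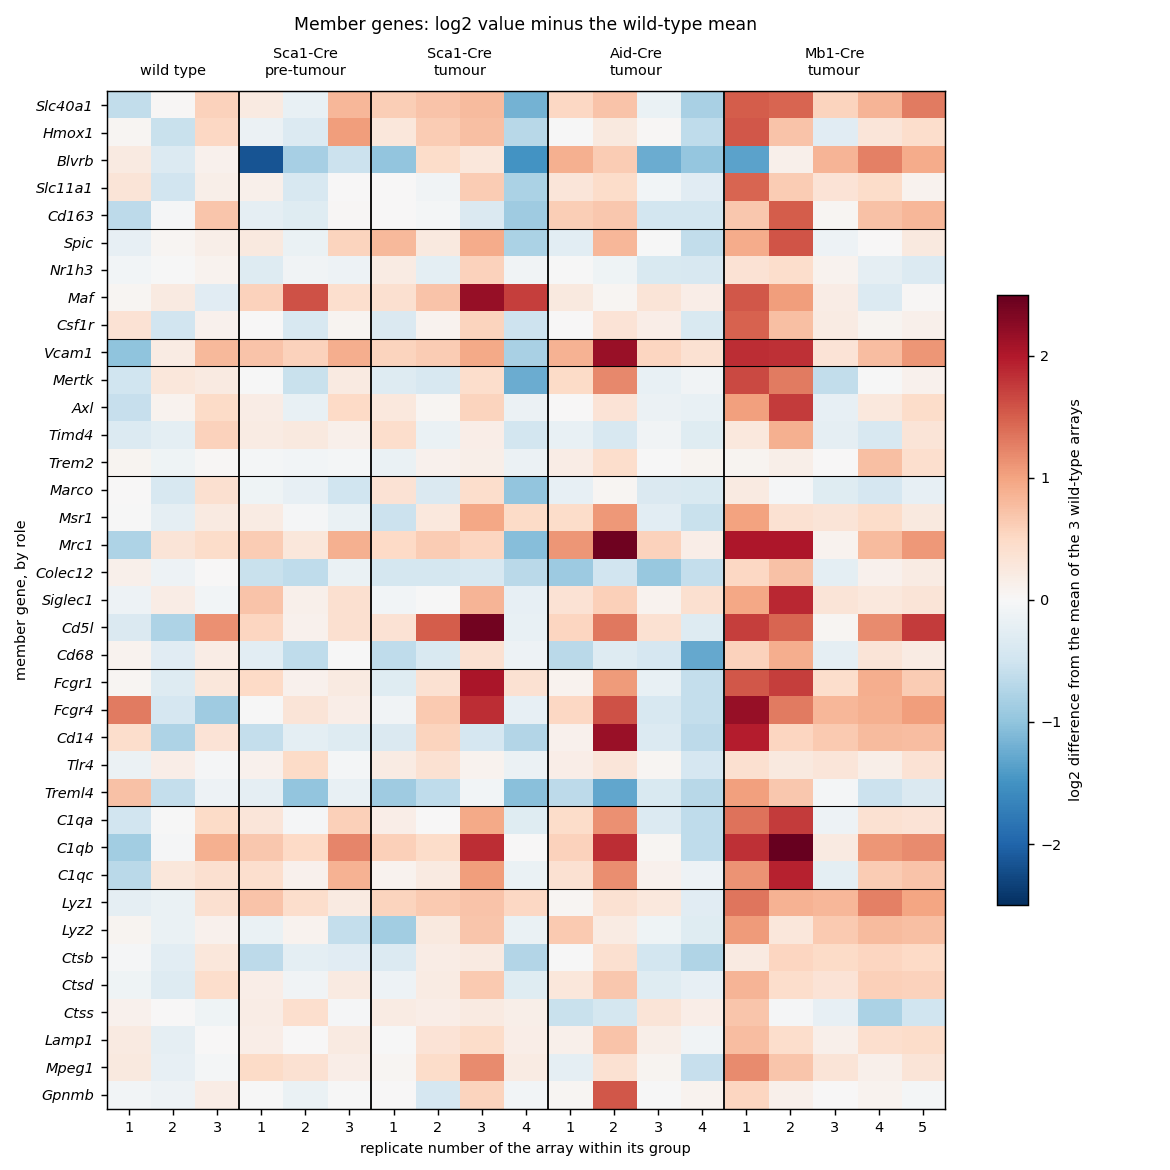
Each row is 1 of the 37 genes, grouped by role, and each column 1 of the 19 arrays, grouped by condition. Colour is the log2 value minus the mean of the 3 wild-type arrays, red above and blue below. Mb1-Cre tumour replicates 1 and 2 hold the highest value of 13 and of 10 genes, and Sca1-Cre tumour replicate 4 the lowest value of 11 genes.

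The Mb1-Cre arrays were uneven. Relative to wild type and averaged over the 37 genes, replicates 1 to 5 of Mb1-Cre stood at 1.03, 0.96, 0.16, 0.39 and 0.47. The 4 Aid-Cre arrays stood at 0.17, 0.65, -0.11 and -0.36, the 4 Sca1-Cre tumour arrays at 0.00, 0.21, 0.70 and -0.34, the 3 pre-tumoral arrays at 0.07, -0.03 and 0.20, and the wild-type arrays at -0.09, -0.16 and 0.25. Replicate 2 of Aid-Cre and replicate 3 of the Sca1-Cre tumours were therefore above the lowest 3 Mb1-Cre arrays, and Mb1-Cre replicate 3 lay within the wild-type range. Aid-Cre replicate 4 and Sca1-Cre tumour replicate 4 were below every wild-type array.

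The individual differences were tested with limma on all genes together, calling a gene at a Benjamini-Hochberg adjusted p under 0.05. Between Aid-Cre and Mb1-Cre tumours, 2 of the 37 genes were called, Colec12 and Lyz1, both lower in Aid-Cre, where 0.0451% of all genes were called. None of the 37 was called in the other 8 comparisons or in the F-test over the 5 groups. In those, calls over all genes were as rare: 0.018% for Aid-Cre against wild type, 0% for Mb1-Cre against wild type, 0.0406% for Sca1-Cre tumours against wild type, 0.00451% for pre-tumoral spleens against wild type, 0.018% for the 3 tumour groups against wild type, 0% for Sca1-Cre tumours against pre-tumoral spleens, 0.0406% for Mb1-Cre against Sca1-Cre tumours, 0.0451% for Aid-Cre against Sca1-Cre tumours and 0.0451% for the F-test.

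At an unadjusted limma p under 0.05 the shares stood further apart. In Mb1-Cre tumours against wild type 13 of 37 genes, or 35.1%, were higher and 0 lower, where 5.13% of all genes were higher. In Mb1-Cre against Sca1-Cre tumours 12 genes, or 32.4%, were higher and 0 lower, where 7.13% of all genes were higher. In Aid-Cre against Mb1-Cre tumours 9 genes, or 24.3%, were lower and 0 higher, where 4.32% of all genes were lower. In the other comparisons the counts at that level, in either direction, were at or below the share over all genes: 2 genes for Aid-Cre against wild type (8.3% of all genes), 3 for Sca1-Cre tumours against wild type (11.4%), 2 for pre-tumoral spleens against wild type (5.47%), 1 for all tumours against wild type (8.93%), 0 for Sca1-Cre tumours against pre-tumoral spleens (5.34%) and 3 for Aid-Cre against Sca1-Cre tumours (13.6%). The F-test gave 6 genes at an unadjusted p under 0.05, where it gave 15.2% of all genes.

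Both of the highest Mb1-Cre arrays weigh on these counts. Without Mb1-Cre replicates 1 and 2, an alternative chosen after seeing the data, 3 genes (8.11%) were higher than wild type and 1 (2.70%) lower at an unadjusted limma p under 0.05, against 6.71% and 7.39% of all genes. Of 37 differences, 30 were above 0, and the median was 0.30. The median of Mb1-Cre minus Sca1-Cre tumours was then 0.16, with 7 genes (18.9%) higher and 2 (5.41%) lower, against 8.43% and 10.3% of all genes. That of Aid-Cre minus Mb1-Cre was -0.23, with 4 genes (10.8%) lower, against 6.19% of all genes. The 2 arrays that carried pancreatic transcripts, Mb1-Cre replicate 2 (pancreas list mean 2.29) and wild-type replicate 2 (0.65), were also left out, which leaves 2 wild-type arrays. Then 2 genes (5.41%) were higher in Mb1-Cre than in wild type at that level, against 3.21% of all genes, and the median was 0.40. In Aid-Cre against Mb1-Cre tumours 8 genes (21.6%) were lower, against 3.9% of all genes. In Mb1-Cre against Sca1-Cre tumours 7 genes (18.9%) were higher, against 6.33% of all genes.

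**Figure D2:**
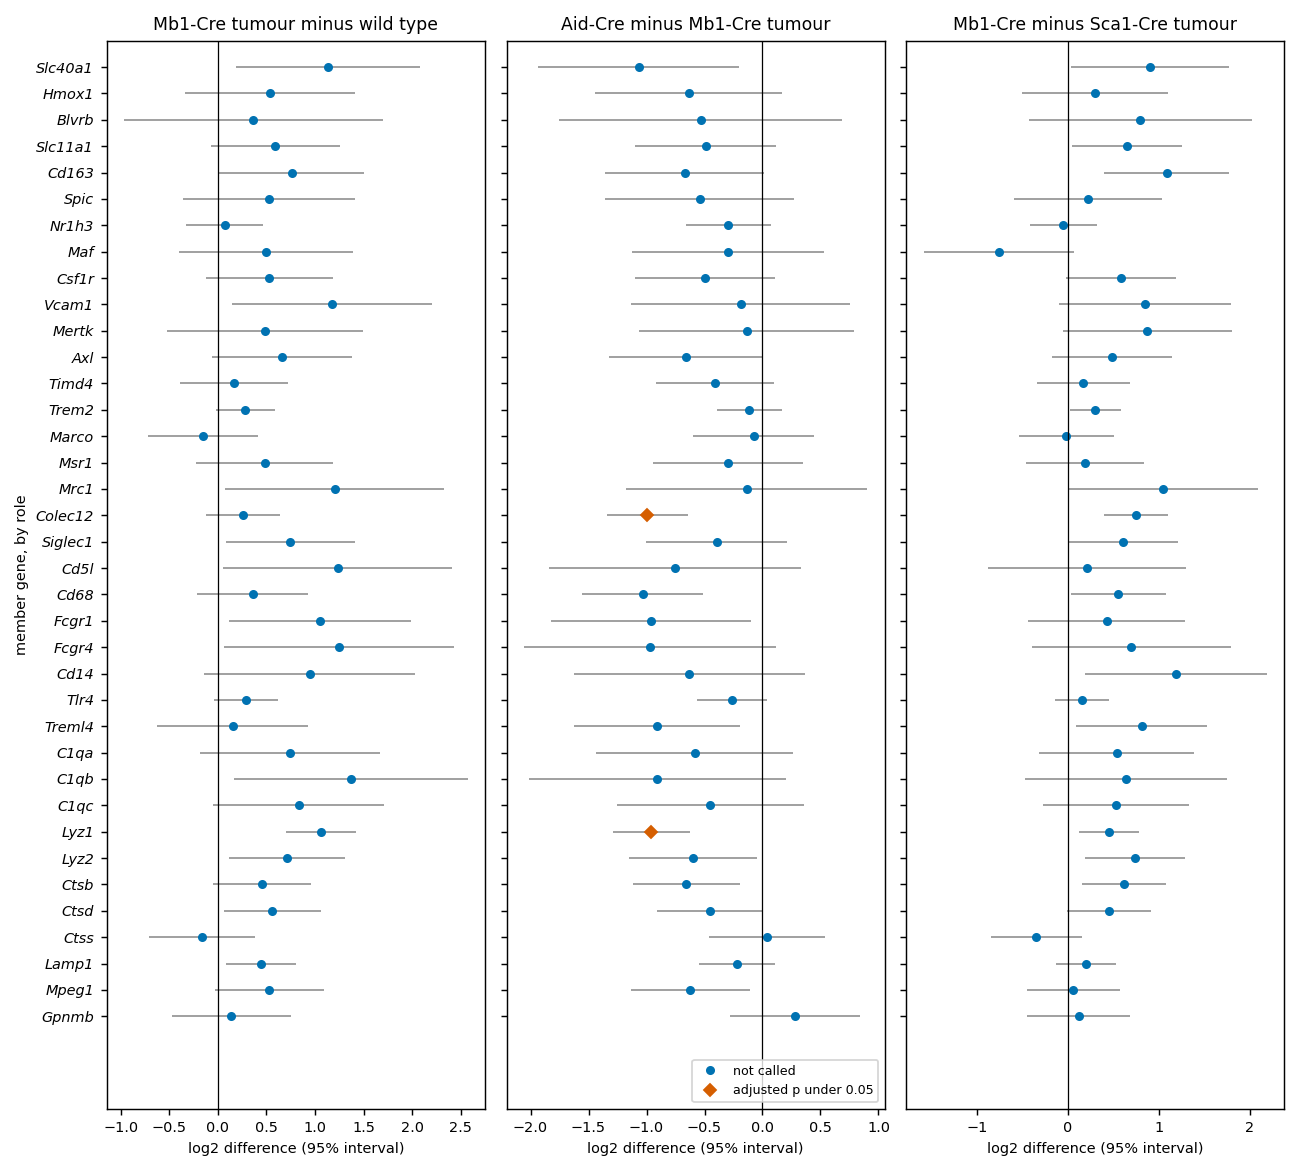
Points are limma log2 differences of the 37 genes, with 95% intervals as lines, for Mb1-Cre tumour minus wild type, Aid-Cre minus Mb1-Cre tumour and Mb1-Cre minus Sca1-Cre tumour. Diamonds mark Colec12 and Lyz1, the genes with an adjusted p under 0.05. Most points lie to the right of 0 in the first panel (35 of 37) and the third (33 of 37), and to the left in the second, where 2 of 37 were above 0.

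Markers of other blood cells also differed in the Mb1-Cre arrays. All 18 of 18 neutrophil genes had a difference above 0 between Mb1-Cre tumours and wild type. Of these, 14 lay wholly above wild type, where 4.1% of all genes did. All 18 were also above 0 in Sca1-Cre tumours, and 11 of 18 in Aid-Cre tumours, each with overlap. Their mean per array, relative to wild type, was 1.67 to 2.62 in Mb1-Cre, against -0.97 to 0.94 in wild type. It was -0.93 to 0.69 in pre-tumoral spleens, -0.32 to 1.58 in Sca1-Cre tumours and -1.73 to 2.26 in Aid-Cre tumours. The neutrophil antigen Ly6g had group means of 6.65 in wild type, 6.71 in pre-tumoral spleens, 8.15 in Sca1-Cre tumours, 6.41 in Aid-Cre tumours and 10.29 in Mb1-Cre tumours. Monocyte genes were above 0 in 10 of 12, with array means of 0.31 to 1.18 in Mb1-Cre and -0.18 to 0.22 in wild type, and the highest value was that of Mb1-Cre replicate 1. Their means were -0.34 to -0.21 in pre-tumoral spleens, -0.63 to 0.54 in Sca1-Cre tumours and -0.72 to 0.15 in Aid-Cre tumours. Sca1-Cre tumour replicate 3, at 0.54, was above Mb1-Cre replicates 2 to 5. B cell genes were below 0 in 17 of 18 in Mb1-Cre tumours, with a median difference of -1.09. Of these 18, 14 lay wholly below wild type, where 5.38% of all genes did. B cell genes were also below 0 in 17 of 18 in Aid-Cre tumours (median -0.99) and in 18 of 18 in Sca1-Cre tumours (median -0.64). The arrays were uneven, with B cell means of -1.14, -3.11, 0.23 and 0.06 in Aid-Cre and 0.04, -0.32, -1.89 and -0.51 in Sca1-Cre tumours. In Mb1-Cre tumours they ran from -1.83 to -0.42, and in wild type from -0.19 to 0.17. T cell genes were below 0 in 15 of 15 in Mb1-Cre tumours (median -0.54) and in 14 of 15 in Aid-Cre tumours (median -0.50). Their array means ran from -1.24 to 0.22 in Mb1-Cre, -1.72 to 0.44 in Aid-Cre and -0.28 to 0.46 in wild type. In Sca1-Cre tumours 13 of 15 T cell genes were above 0 (median 0.26). None of the genes on these lists was called. The part of any of these cells in the results on the 37 genes was not tested.

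**Figure D3:**
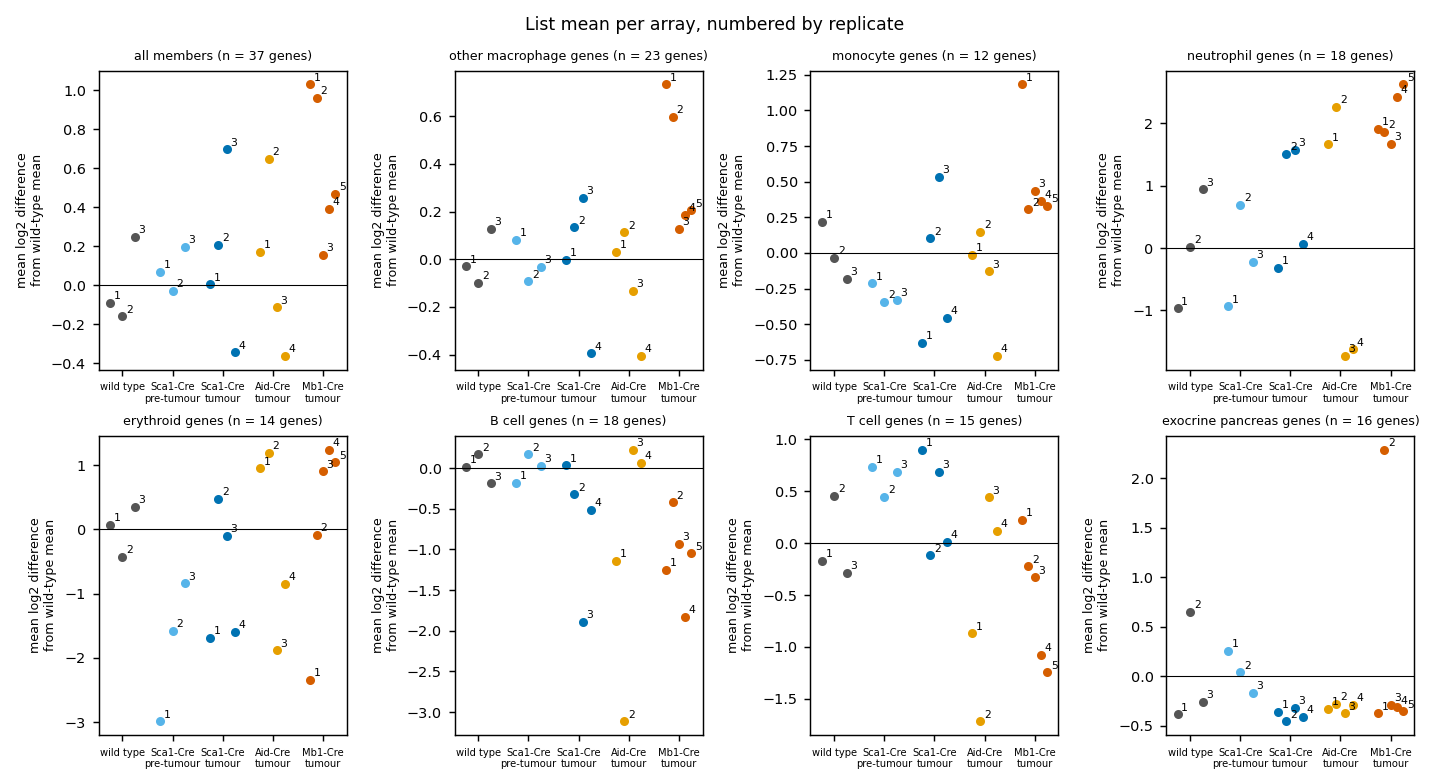
Each point is 1 array, numbered by replicate, and shows the mean over a list of genes of the log2 value minus its wild-type mean. The 37 genes are at the top left, beside lists of other macrophage, monocyte, neutrophil, erythroid, B cell, T cell and exocrine pancreas genes, and vertical scales differ between panels. Mb1-Cre replicates 1 and 2 are highest for the 37 genes (1.03 and 0.96) and for other macrophage genes (0.73 and 0.60), replicate 1 for monocyte genes (1.18), and replicate 2 for pancreas genes (2.29).

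Among genes of iron and haem handling, all 5 stood above wild type in the Mb1-Cre tumours, with a median difference of 0.59, and none passed the limma test. Slc40a1, the exporter ferroportin, was at 7.80, 8.43 and 8.99 in the wild-type arrays and at 9.92, 9.86, 8.96, 9.26 and 9.72 in the Mb1-Cre arrays. Mb1-Cre replicate 3 alone lay below the highest wild-type array. The difference was 1.13 ± 0.45 (SE; limma adjusted p = 0.36), and the Aid-Cre mean lay 1.07 ± 0.41 (SE) below the Mb1-Cre mean (limma adjusted p = 0.486). The other group means of Slc40a1 were 8.70 ± 0.52 (SD, n = 3) in pre-tumoral spleens, 8.64 ± 0.95 (SD, n = 4) in Sca1-Cre tumours and 8.48 ± 0.69 (SD, n = 4) in Aid-Cre tumours. Its Sca1-Cre tumour spread came from replicate 4, at 7.23, against 9.02 to 9.20 in the other 3 arrays.

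Cd163, the receptor that takes up haptoglobin-bound haemoglobin, had the smallest F-test p of this group (limma adjusted p = 0.297). Its Sca1-Cre tumour arrays were at 6.41, 6.35, 6.05 and 5.53 and its Mb1-Cre arrays at 7.08, 7.93, 6.46, 7.14 and 7.23. Those groups did not overlap, and the difference was 1.08 ± 0.32 (SE; limma adjusted p = 0.12). The 4 Aid-Cre arrays split into a pair at 7.03 and 7.08 and a pair at 5.95 and 5.94. Wild-type and pre-tumoral means were 6.41 ± 0.67 (SD, n = 3) and 6.25 ± 0.17 (SD, n = 3).

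Blvrb, biliverdin reductase B, which is also abundant in red cells, behaved apart from the other iron genes. All 3 pre-tumoral arrays, at 7.50, 8.81 and 9.11, were below the wild-type arrays, at 9.88, 9.32 and 9.75. Among the Mb1-Cre arrays, replicate 1 had the lowest Blvrb value, 8.32, while it had the highest Hmox1 value of all arrays, 10.01. Erythroid genes were also low in both of those places: their mean relative to wild type stood at -2.99 in pre-tumoral replicate 1 and at -2.34 in Mb1-Cre replicate 1, against 0.91 to 1.24 in Mb1-Cre replicates 3 to 5. Whether red cell precursors set the Blvrb values was not tested. Blvrb means were 9.65 ± 0.30 (SD, n = 3) for wild type, 8.47 ± 0.86 (SD, n = 3) in pre-tumoral spleens, 9.22 ± 0.95 (SD, n = 4) in Sca1-Cre tumours, 9.48 ± 1.09 (SD, n = 4) in Aid-Cre tumours and 10.02 ± 1.03 (SD, n = 5) in Mb1-Cre tumours. Hmox1, haem oxygenase 1, and Slc11a1, a metal transporter of phagosomes, had Mb1-Cre arrays from 8.16 to 10.01 and from 7.99 to 9.34, both overlapping wild type.

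The 27 measured genes of a wider iron and haem list had smaller differences. Their median difference between Mb1-Cre tumours and wild type was 0.18, with 21 of 27 above 0, and none was called in any comparison. Hebp1, a haem-binding protein, had the smallest F-test p of that list (limma adjusted p = 0.248) and stood at -1.22 ± 0.43 (SE) in Aid-Cre minus Mb1-Cre.

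The 3 transcription factors and the growth factor receptor had their 2 highest Mb1-Cre values in replicates 1 and 2. Averaged over these 4 genes, those arrays stood 1.08 and 0.96 above wild type, and the other Mb1-Cre arrays at -0.12 to 0.09. Sca1-Cre tumour replicate 3 stood at 1.06. Maf, a transcription factor of macrophages that T cells also express, had its highest group means in the Sca1-Cre line. Its wild-type arrays were at 6.96, 7.12 and 6.62, its pre-tumoral arrays at 7.48, 8.50 and 7.33, and its Sca1-Cre tumour arrays at 7.30, 7.60, 9.07 and 8.64. Every Sca1-Cre array was above every wild-type array, with a tumour difference of 1.25 ± 0.44 (SE; limma adjusted p = 0.29) and a pre-tumoral one of 0.87 ± 0.48 (SE; limma adjusted p = 0.883). The Aid-Cre arrays, at 6.95 to 7.23, were all below the Sca1-Cre tumour arrays, by 1.06 ± 0.41 (SE; limma adjusted p = 0.279), and the Mb1-Cre arrays ran from 6.57 to 8.45. The other Maf probe set was dim, with a mean of 4.96 over the arrays, and had group means of 4.85 in wild type, 5.08 in pre-tumoral spleens, 5.38 in Sca1-Cre tumours, 4.64 in Aid-Cre tumours and 4.85 in Mb1-Cre tumours. The wild-type, Aid-Cre and Mb1-Cre means lay within or below the dim range, so no order of groups is read from it. T cell genes stood 0.45 to 0.74 above wild type in the pre-tumoral arrays and -0.12 to 0.90 in the Sca1-Cre tumour arrays, and their part in the Maf values was not tested.

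Spic, the factor that red pulp macrophages need, had means from 7.75 ± 0.62 (SD, n = 4) in Aid-Cre tumours to 8.29 ± 0.71 (SD, n = 5) in Mb1-Cre tumours. It was at 9.34 and 8.69 in Mb1-Cre replicates 2 and 1 and at 8.69 in Sca1-Cre tumour replicate 3, and the other 3 Mb1-Cre arrays, at 7.64 to 8.0, lay close to the wild-type arrays, at 7.56 to 7.91. Csf1r, the receptor for macrophage growth factor, followed the same arrays, with 10.37 in Mb1-Cre replicate 1 and 9.64 in replicate 2. Its other Mb1-Cre values were 8.97 to 9.10, inside the wild-type range of 8.41 to 9.25. Nr1h3, the sterol-sensing nuclear receptor LXR alpha, ranged over 0.98 across all 19 arrays. Its group means were 6.24 ± 0.08 (SD, n = 3) for wild type, 6.07 ± 0.13 (SD, n = 3) in pre-tumoral spleens, 6.36 ± 0.36 (SD, n = 4) in Sca1-Cre tumours, 6.02 ± 0.20 (SD, n = 4) in Aid-Cre tumours and 6.32 ± 0.34 (SD, n = 5) in Mb1-Cre tumours. Among 9 measured LXR target genes, 3 had a difference above 0 between Mb1-Cre tumours and wild type, with a median of -0.24, and none was called.

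Vcam1, an adhesion molecule of red pulp macrophages and also of stromal and endothelial cells, was at 7.35, 8.56 and 9.17 in wild type and at 8.71 to 10.20 in the Mb1-Cre arrays. The difference was 1.18 ± 0.49 (SE; limma adjusted p = 0.39), and the groups overlapped. Its highest value of all, 10.52, was in Aid-Cre replicate 2. Group means were 9.10 ± 0.16 (SD, n = 3) in pre-tumoral spleens, 8.69 ± 0.78 (SD, n = 4) in Sca1-Cre tumours and 9.35 ± 0.81 (SD, n = 4) in Aid-Cre tumours. Genes of spleen endothelium and stroma had array means of 0.34 and 0.65 above wild type in Mb1-Cre replicates 1 and 2 and of -0.23 to -0.06 in replicates 3 to 5, and their part in the Vcam1 values was not tested.

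Among receptors for apoptotic cells and lipids, all 4 had a Mb1-Cre difference from wild type above 0, with a median of 0.39, and none had an unadjusted limma p under 0.05. Mertk and Axl, related kinases that bind dying cells, stood highest in the same pair of arrays. Mertk was at 8.66 and 8.32 in Mb1-Cre replicates 1 and 2 and at 6.40 to 7.11 in the other 3, and Axl was at 9.01 and 9.73 there and at 7.78 to 8.45 in the other 3. Axl group means were 7.98 ± 0.53 (SD, n = 3) for wild type, 8.15 ± 0.34 (SD, n = 3) in pre-tumoral spleens, 8.16 ± 0.30 (SD, n = 4) in Sca1-Cre tumours, 7.98 ± 0.24 (SD, n = 4) in Aid-Cre tumours and 8.64 ± 0.75 (SD, n = 5) in Mb1-Cre tumours. Trem2, a lipid-sensing receptor, had its highest value, 6.67, in Mb1-Cre replicate 4, followed by Aid-Cre replicate 2 at 6.35 and Mb1-Cre replicate 5 at 6.34. Its group means were 5.92 ± 0.09 (SD, n = 3) for wild type, 5.86 ± 0.01 (SD, n = 3) in pre-tumoral spleens, 5.90 ± 0.16 (SD, n = 4) in Sca1-Cre tumours, 6.09 ± 0.19 (SD, n = 4) in Aid-Cre tumours and 6.20 ± 0.31 (SD, n = 5) in Mb1-Cre tumours. Timd4, a phosphatidylserine receptor, stayed between 5.46 and 6.80 on all arrays.

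The scavenger receptor Colec12, a collectin-type receptor that is also made by vascular endothelium, gave one of the called differences. Its wild-type arrays were at 6.59, 6.34 and 6.49, its Mb1-Cre arrays at 6.99, 7.21, 6.23, 6.57 and 6.67, and its Aid-Cre arrays at 5.56, 5.99, 5.52 and 5.88. Its pre-tumoral arrays were at 5.92, 5.84 and 6.30 and its Sca1-Cre tumour arrays at 6.03, 6.03, 6.08 and 5.79. The Aid-Cre and Sca1-Cre tumour arrays all lay below all Mb1-Cre and all wild-type arrays, and the pre-tumoral arrays lay below all wild-type arrays.

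Colec12 fell by 0.99 ± 0.17 (SE) on the log2 scale from Mb1-Cre to Aid-Cre tumours, or 1.99-fold, with a limma adjusted p of 0.0472 and a 95% interval of -1.34 to -0.64. Against Sca1-Cre tumours the Mb1-Cre mean was 0.75 ± 0.17 (SE) higher (limma adjusted p = 0.0617). Against wild type the difference was -0.73 ± 0.19 (SE) in Aid-Cre (limma adjusted p = 0.282), -0.49 ± 0.19 in Sca1-Cre tumours (limma adjusted p = 0.335), -0.45 ± 0.20 in pre-tumoral spleens (limma adjusted p = 0.883) and 0.26 ± 0.18 in Mb1-Cre (limma adjusted p = 0.597). The called difference sat at the threshold: of 19 fits that each left out 1 array, it was called in 2, without Aid-Cre replicate 2 and without Mb1-Cre replicate 3, and over all settings the adjusted p ran from 0.0184 to 0.453 and the difference from -1.12 to -0.75. Genes of spleen endothelium and stroma had a median difference of -0.11 between Aid-Cre and Mb1-Cre tumours, with 9 of 14 below 0, and their part in the Colec12 values was not tested.

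Cd68, a lysosomal scavenger protein used as a general macrophage marker, also had its highest mean in Mb1-Cre and its lowest in Aid-Cre. It was at 9.72, 10.06, 8.91, 9.48 and 9.36 in Mb1-Cre and at 8.48, 8.83, 8.73 and 7.86 in Aid-Cre, without overlap, a difference of -1.03 ± 0.25 (SE; limma adjusted p = 0.261) for Aid-Cre minus Mb1-Cre. The Aid-Cre arrays were also all below the wild-type arrays, at 9.24, 8.87 and 9.33, by 0.67 ± 0.28 on the log2 scale (SE; limma adjusted p = 0.545). Colec12 and Cd68 were the 2 genes of the 37 with Aid-Cre wholly below wild type, where 3.45% of all genes were. Cd68 means were 8.84 ± 0.32 (SD, n = 3) in pre-tumoral spleens and 8.95 ± 0.43 (SD, n = 4) in Sca1-Cre tumours.

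The other scavenger and sialic acid receptors differed in which arrays were high. In Mb1-Cre replicates 1 and 2 Mrc1, the mannose receptor, was at 9.08 and 9.09, and it was at 7.14, 7.84 and 8.14 in the other Mb1-Cre arrays, while its highest value, 9.48, was in Aid-Cre replicate 2. Siglec1, the sialoadhesin of metallophilic macrophages, was at 4.68 to 5.00 in wild type, 5.06 to 6.68 in Mb1-Cre and 4.61 to 5.65 in Sca1-Cre tumours. Its wild-type values were in or near the dim range, and the Mb1-Cre difference was 0.75 ± 0.31 (SE; limma adjusted p = 0.395). Cd5l, a secreted protein of tissue macrophages and a target of LXR, spanned 5.21 to 8.41 over all arrays, with 7.50 and 8.41 in Sca1-Cre tumour replicates 2 and 3. Its means were 5.99 ± 1.02 (SD, n = 3) for wild type, 6.35 ± 0.22 (SD, n = 3) in pre-tumoral spleens, 7.02 ± 1.16 (SD, n = 4) in Sca1-Cre tumours, 6.47 ± 0.67 (SD, n = 4) in Aid-Cre tumours and 7.23 ± 0.70 (SD, n = 5) in Mb1-Cre tumours. Marco, the marginal zone scavenger receptor, had a Mb1-Cre difference of -0.15 from wild type, and Msr1 had all Mb1-Cre arrays (6.01 to 6.77) above wild type (5.56 to 6.0).

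Among Fc and microbial sensing receptors, all 5 stood above wild type in Mb1-Cre tumours, with a median difference of 0.95. Fcgr1, the high-affinity IgG receptor, was at 7.13 to 8.41 in Mb1-Cre and 6.36 to 6.98 in wild type, without overlap, a difference of 1.05 ± 0.44 (SE; limma adjusted p = 0.397). Cd14, a co-receptor for lipopolysaccharide, was at 7.19 to 8.61 in Mb1-Cre and 5.88 to 7.09 in wild type, also without overlap, and reached 8.82 in Aid-Cre replicate 2. Both of these, with Fcgr4, an activating IgG receptor that neutrophils also carry, are genes of monocytes as well as of macrophages. Fcgr4 overlapped wild type, since wild-type replicate 1 was at 8.48 and the other wild-type arrays at 6.76 and 6.28.

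Treml4, a receptor of red pulp and marginal zone macrophages that binds dead cells, stood low in part of the tumours. Its Aid-Cre arrays, at 7.67, 7.02, 7.95 and 7.63, and Sca1-Cre tumour arrays, at 7.43, 7.69, 8.25 and 7.28, lay mostly below wild type, at 9.05, 7.72 and 8.19, while the Mb1-Cre arrays were at 9.35, 8.99, 8.27, 7.79 and 7.96. The Aid-Cre difference from Mb1-Cre was -0.91 ± 0.34 (SE; limma adjusted p = 0.473). The pre-tumoral mean was 7.86 ± 0.45 (SD, n = 3). Tlr4, the lipopolysaccharide receptor, ranged over 0.90 across the 19 arrays.

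The 3 chains of complement C1q, which coats dying cells for uptake, had their highest array in common. The lowest of all arrays was Aid-Cre replicate 4 for C1qa and wild-type replicate 1 for C1qb and C1qc. C1qb was at 7.08, 7.92 and 8.83 in wild type, at 9.77, 10.46, 8.15, 9.04 and 9.11 in Mb1-Cre and at 8.52, 9.78, 7.99 and 7.30 in Aid-Cre. It was at 8.62, 8.44 and 9.16 in pre-tumoral spleens and at 8.54, 8.41, 9.78 and 7.95 in Sca1-Cre tumours. The highest array of C1qa, C1qb and C1qc alike was Mb1-Cre replicate 2, at 9.12, 10.46 and 8.96. Aid-Cre replicate 2 and Sca1-Cre tumour replicate 3 were the highest of their groups for each chain, and Mb1-Cre replicate 3 the lowest of its group. Against wild type the Mb1-Cre difference of C1qb was 1.37 ± 0.57 (SE; limma adjusted p = 0.392), with overlap. Other complement genes, 16 measured, had a median of 0.39 in that comparison with 10 of 16 above 0. None was called, and Vsig4, the complement receptor of tissue macrophages, stood at 0.78 ± 0.17 (SE; limma adjusted p = 0.17).

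**Figure D4:**
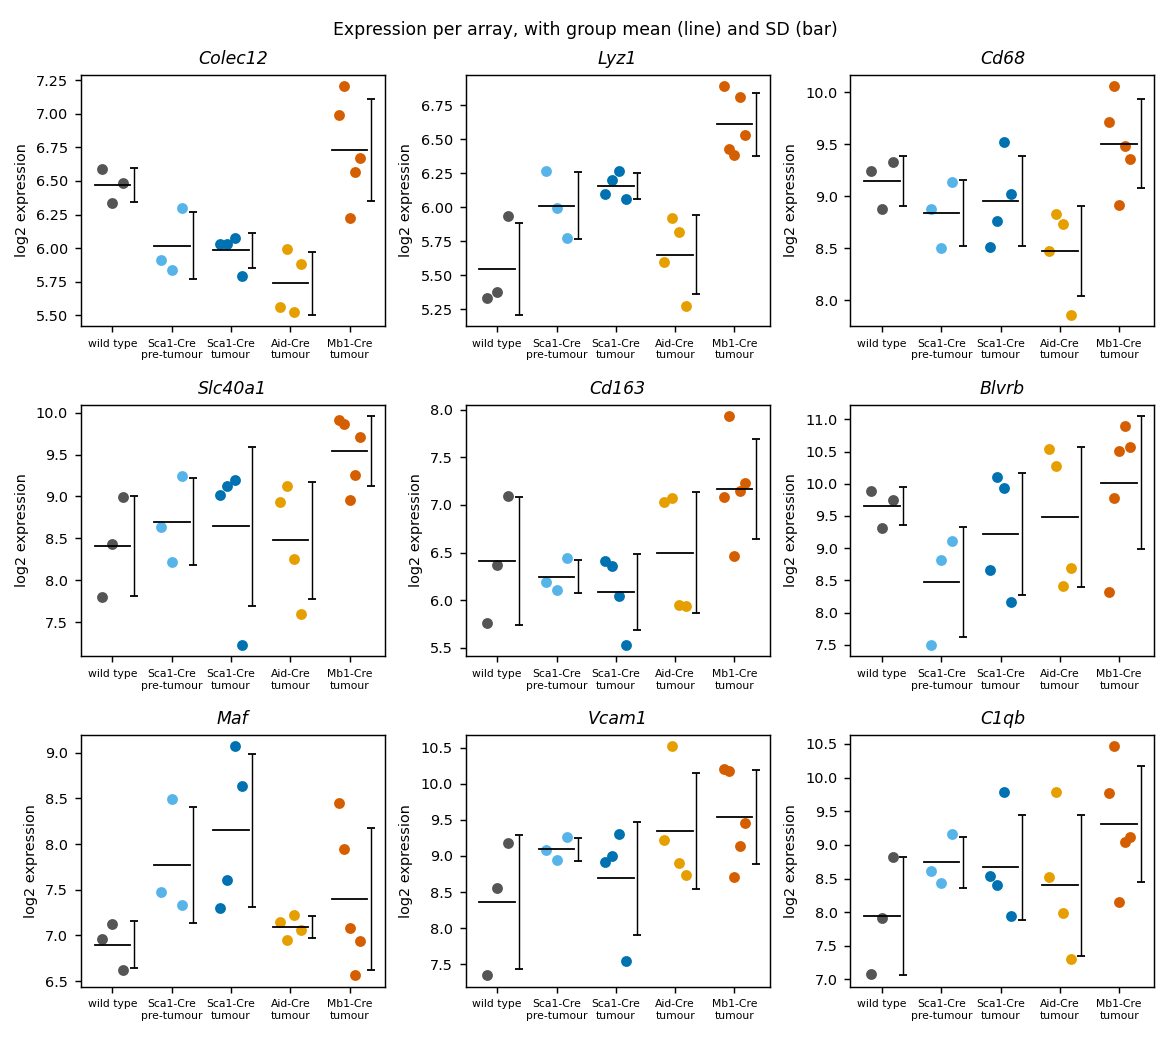
Log2 expression of 9 of the genes in each array, with points coloured by group, horizontal lines for group means and bars for the SD. For Colec12, Lyz1 and Cd68 the Aid-Cre arrays all lie below the Mb1-Cre arrays, for Cd163 the Sca1-Cre tumour arrays do, for Maf the Sca1-Cre arrays lie above wild type, and for Blvrb the pre-tumoral arrays lie below wild type. For Slc40a1, Vcam1 and C1qb every tumour group overlaps wild type.

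Lyz1 gave the other called difference. Lyz1 and Lyz2 are neighbouring copies of a lysozyme gene, Lyz2 being the form of macrophages, monocytes and neutrophils and Lyz1 that of intestinal Paneth cells. Because the copies are near-identical, RNA of one may reach the probe set of the other, and the assignment of the signal between them is uncertain. The Lyz1 arrays were at 5.33, 5.37 and 5.94 in wild type, 6.26, 5.99 and 5.77 in pre-tumoral spleens, 6.10, 6.20, 6.27 and 6.06 in Sca1-Cre tumours, 5.60, 5.92, 5.82 and 5.27 in Aid-Cre tumours, and 6.89, 6.43, 6.38, 6.81 and 6.53 in Mb1-Cre tumours. The Mb1-Cre arrays were above all 14 others, and the Sca1-Cre tumour arrays were above all wild-type and Aid-Cre arrays.

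Lyz1 fell by 0.96 ± 0.16 (SE) on the log2 scale from Mb1-Cre to Aid-Cre tumours, or 1.94-fold, with a limma adjusted p of 0.0472 and a 95% interval of -1.29 to -0.62. Against wild type it was 1.06 ± 0.17 (SE) higher in Mb1-Cre (limma adjusted p = 0.125), 0.61 ± 0.18 in Sca1-Cre tumours (limma adjusted p = 0.212), 0.46 ± 0.19 in pre-tumoral spleens (limma adjusted p = 0.883) and 0.10 ± 0.18 in Aid-Cre (limma adjusted p = 0.921). Aid-Cre was 0.51 ± 0.17 (SE) below Sca1-Cre tumours on the log2 scale (limma adjusted p = 0.207). The called difference was kept in 3 of the 19 fits without 1 array, those without wild-type replicate 3, Aid-Cre replicate 2 or Mb1-Cre replicate 1, and over all settings it lay between -1.05 and -0.83 with an adjusted p of 0.0222 to 0.299. Without wild-type replicate 3 the difference of Mb1-Cre from wild type was called as well, at 1.26 (limma adjusted p = 0.0302).

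Lyz2 had the same highest group but more overlap. Its Mb1-Cre arrays were at 12.86, 12.08, 12.45, 12.59 and 12.53, above all wild-type arrays, at 11.85, 11.62 and 11.90, by 0.71 ± 0.28 (SE; limma adjusted p = 0.366). Its Sca1-Cre tumour arrays ran from 10.93 to 12.48, its Aid-Cre arrays from 11.50 to 12.45 and its pre-tumoral arrays from 11.19 to 11.88. The neutrophil list, given above, was highest in the same group, and its part in the lysozyme values was not tested.

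The stretches before the starts of Lyz1 and Lyz2, and of C1qb and C1qc, are shown because these neighbours had high arrays in common or may share a signal. Each is the 250 bases before the gene's start in the RefSeq promoter table (build GRCm38.p6), written 5′ to 3′ on the gene's strand, which is the minus strand for all 4 genes. Capitals mark GAGGAA and AGGAAGT, read on either strand, which are letters of the kind bound by the macrophage factor PU.1 and other ETS proteins. Lyz1 is at chr10:117292869-117293118, Lyz2 at chr10:117282273-117282522, C1qb at chr4:136886201-136886450 and C1qc at chr4:136892915-136893164.
Lyz1: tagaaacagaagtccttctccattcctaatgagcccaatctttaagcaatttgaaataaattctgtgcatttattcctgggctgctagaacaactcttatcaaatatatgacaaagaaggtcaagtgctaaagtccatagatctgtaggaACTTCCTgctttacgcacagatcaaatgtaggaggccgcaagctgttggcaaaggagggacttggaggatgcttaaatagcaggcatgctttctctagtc
Lyz2: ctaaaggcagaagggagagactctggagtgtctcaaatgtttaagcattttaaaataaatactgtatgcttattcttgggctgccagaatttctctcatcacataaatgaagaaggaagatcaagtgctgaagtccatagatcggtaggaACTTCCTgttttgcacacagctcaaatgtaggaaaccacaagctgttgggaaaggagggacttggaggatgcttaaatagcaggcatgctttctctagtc
C1qb: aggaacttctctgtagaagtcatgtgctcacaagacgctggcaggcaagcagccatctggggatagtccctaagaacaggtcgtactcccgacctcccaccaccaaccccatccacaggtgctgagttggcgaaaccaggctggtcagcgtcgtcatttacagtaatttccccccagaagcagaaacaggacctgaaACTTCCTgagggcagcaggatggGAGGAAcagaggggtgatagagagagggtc
C1qc: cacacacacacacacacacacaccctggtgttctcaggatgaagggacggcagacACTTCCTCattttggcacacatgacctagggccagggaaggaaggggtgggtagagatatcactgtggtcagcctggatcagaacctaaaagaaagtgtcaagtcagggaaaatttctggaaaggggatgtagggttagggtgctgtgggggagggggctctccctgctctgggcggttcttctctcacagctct

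The Lyz1 and Lyz2 stretches were identical at 200 of 252 aligned columns, or 79.4%, and both held AGGAAGT at the same distance from the start, bases -100 to -94 (base -1 being the last before the start). C1qb and C1qc were identical at 43.5% of 271 columns. In C1qc the letters GAGGAA and AGGAAGT overlap, and in C1qb they lie apart, at -30 to -25 and -53 to -47.

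RefSeq promoter entries were matched for 25 of the 37 genes, on 27 stretches, and 5 motifs were searched on both strands in the same 250 bases of all 32851 entries. GAGGAA was in 13 of the 27 stretches, each of another gene (Axl, C1qb, C1qc, Cd5l, Cd68, Ctss, Fcgr1, Fcgr4, Marco, Mrc1, Slc11a1, Trem2 and Treml4), against 23.3% of all stretches. AGGAAGT was in 8 of 27 (C1qb, C1qc, Fcgr1, Fcgr4, Lyz1, Lyz2, Mrc1 and Spic), against 7.69%. The lysosomal gene element TCACGTG was in 2 of 27 (Ctsd and Lamp1), against 3.13%. The antioxidant response letters TGACNNNGC were in 2 of 27 (C1qb and Ctsd), against 10.2%. The palindrome TTGCGCAA of C/EBP factors was in none, against 0.164%. A match describes the letters only.

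The other lysosomal genes had Mb1-Cre differences from wild type between -0.16 for Ctss and 0.56 for Ctsd. Lamp1, a protein of the lysosomal membrane, was at 9.84, 9.38 and 9.62 in wild type and at 10.39, 10.06, 9.73, 10.03 and 10.07 in Mb1-Cre, a difference of 0.44 ± 0.17 (SE; limma adjusted p = 0.349). Its pre-tumoral, Sca1-Cre tumour and Aid-Cre means were 9.75 ± 0.11 (SD, n = 3), 9.85 ± 0.21 (SD, n = 4) and 9.84 ± 0.35 (SD, n = 4). The protease Ctsb was at 11.79 to 12.10 in Mb1-Cre and at 10.81 to 11.97 in Aid-Cre, a difference of -0.66 ± 0.22 (SE; limma adjusted p = 0.415) for Aid-Cre minus Mb1-Cre. The protease Ctsd stood 0.56 ± 0.24 (SE) above wild type in Mb1-Cre (limma adjusted p = 0.394). The protease Ctss, which B cells and dendritic cells also use for antigen presentation, ran the other way, with Mb1-Cre values of 10.34 to 11.82 and a difference of -0.16 from wild type.

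Mpeg1, a pore-forming protein of macrophages, had means of 9.45 ± 0.23 (SD, n = 3) for wild type, 9.79 ± 0.16 (SD, n = 3) in pre-tumoral spleens, 9.92 ± 0.50 (SD, n = 4) in Sca1-Cre tumours, 9.36 ± 0.41 (SD, n = 4) in Aid-Cre tumours and 9.98 ± 0.42 (SD, n = 5) in Mb1-Cre tumours. Its Aid-Cre difference from Sca1-Cre tumours was -0.56 ± 0.26 (SE; limma adjusted p = 0.351). Gpnmb, a glycoprotein of lipid-laden macrophages, was at 6.49 in Aid-Cre replicate 2 and at 4.52 to 5.48 on the other 18 arrays. The wider lysosomal list, 27 genes measured, had a median difference of 0.18 between Mb1-Cre tumours and wild type, with 19 of 27 above 0 and none called. Lamp2 stood at 0.71 ± 0.22 (SE; limma adjusted p = 0.261).

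Genes whose arrays did not overlap between groups were counted as well. In Mb1-Cre tumours 6 of 37 genes, or 16.2%, lay wholly above wild type (Msr1, Siglec1, Fcgr1, Cd14, Lyz1 and Lyz2), where 4.1% of all genes did. Against Sca1-Cre tumours 3 genes, or 8.11%, lay wholly above (Cd163, Colec12 and Lyz1; all genes 2.43%). In Aid-Cre 3 genes lay wholly below Mb1-Cre (Colec12, Cd68 and Lyz1; all genes 0.938%) and 2 wholly below Sca1-Cre tumours (Maf and Lyz1; all genes 2.96%). In Sca1-Cre tumours 3 genes lay wholly above wild type (Maf, Lyz1 and Ctss; all genes 6.21%) and 1 wholly below (Colec12; all genes 5.86%). In pre-tumoral spleens 3 lay wholly below wild type (Blvrb, Nr1h3 and Colec12; all genes 8.49%) and 1 wholly above (Maf; all genes 8.35%). With wild-type replicate 2 left out, which leaves 2 wild-type arrays, 11 genes (29.7%) lay wholly below and 2 (5.41%) wholly above, against 15% and 15.6% of all genes.

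The Sca1-Cre line before and after tumours gave no gene with an unadjusted limma p under 0.05. The smallest belonged to Nr1h3, Cd5l and Blvrb, with tumour means of 6.36, 7.02 and 9.22 against pre-tumoral means of 6.07, 6.35 and 8.47. The mean over the 37 genes had an SD of 0.43 over 4 tumour arrays and of 0.11 over 3 pre-tumoral arrays. Other macrophage genes, 23 measured outside the 37, gave a median of -0.03 in this comparison, 0.51 for Mb1-Cre against wild type, with 19 of 23 above 0, and -0.50 for Aid-Cre against Mb1-Cre, with none called in any. Their array means, relative to the wild-type mean, were 0.13 to 0.73 in Mb1-Cre and -0.41 to 0.11 in Aid-Cre. They were -0.10 to 0.13 in wild type, -0.09 to 0.08 in pre-tumoral spleens and -0.39 to 0.26 in Sca1-Cre tumours. Mb1-Cre replicate 3 and wild-type replicate 3 both stood at 0.13.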

How the data were processed

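Total RNA of 19 whole spleens was extracted with Trizol and biotin-labelled, per the labels' protocols. The deposited log2 expression values came from RMA and the oligo package, as the submitters' processing notes name them, and these were used without further scaling. Of 41345 probe sets, 23521 had 1 gene symbol in GEO's platform annotation, 1814 several and 16010 none, which left 22180 genes. RMA gives no depth, and the number of arrays limits the precision. Group means were fitted in 1 model over all 19 arrays with limma 3.58.1 (R 4.3.3; lmFit, contrasts.fit, eBayes, two-sided), 9 contrasts and an F-test, with Benjamini-Hochberg adjustment over all genes, and the fit was tested on simulated data. Genes were named in full where called, where they had the smallest F-test p or the highest mean of their role, or one of the 3 smallest p of a comparison. The 37 genes, their roles and 13 further lists were chosen with earlier results of these data known. Samples of different groups share replicate numbers, but 33 same-numbered pairs had a median correlation of deviations of -0.05, with 8 over 0.1, so numbers were not used as a block. Sequences were aligned with Biopython 1.88 (Python 3.11.15). Alternatives were median centring, cyclic loess, a dim-gene filter, the mean of probe sets, a variance trend, a replicate block, a sex covariate, fewer groups and arrays left out.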

Additional observations from a re-analysis of the deposited data

Results flagged for a closer look

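Within groups of 4 or 5 arrays, 5 of 111 combinations of gene and group held an array far from the rest by Dixon's criterion, and chance gives about 1 in 20. Slc40a1 (7.23) and Mrc1 (6.0) were low in Sca1-Cre tumour replicate 4, where the other arrays were at 9.02 or higher and 7.55 or higher. Gpnmb was high in Aid-Cre replicate 2 (6.49, next 5.01). In Mb1-Cre replicate 1 Cd14 was high (8.61, next 7.45) and Ctsb low (11.79, next 12.03). The difference between Aid-Cre and Mb1-Cre tumours passed the limma threshold for Colec12 (-0.99) and Lyz1 (-0.96), at an adjusted p of 0.0472 for each.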

How the results depend on the processing

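Of all values and counts compared under the alternatives, 1258 were labelled unchanged, 66 weaker, 8 stronger and 1 moved. Weaker or stronger means that a gene lost or passed the threshold, or that a count of called genes fell or rose. All 66 weaker ones were Colec12, Lyz1 or the count of called genes between Aid-Cre and Mb1-Cre tumours. A gene and the count that includes it are not separate observations. Medians near 0 changed sign under some alternatives and were still counted as unchanged. Against wild type, the median ran from -0.18 to 0.23 for Aid-Cre and from -0.03 to 0.23 for Sca1-Cre tumours. For pre-tumoral spleens it ran from -0.07 to 0.16. Aid-Cre minus Sca1-Cre tumours ran from -0.22 to 0.10, and Sca1-Cre tumours minus pre-tumoral spleens from -0.11 to 0.18. The count of genes called between Aid-Cre and Mb1-Cre tumours was 2. It stayed at 2 with median centring, cyclic loess, the dim-gene filter, the mean of probe sets and the variance trend. It was 0 with the replicate block (Lyz1 -0.98, limma adjusted p = 0.223, and Colec12 -1.01, limma adjusted p = 0.227), the sex covariate, without the 2 arrays with pancreatic transcripts, with only the groups compared, and without Mb1-Cre replicates 1 and 2 (added after seeing the data), and 0 to 2 without single arrays. The replicate block changed no other call. Mb1-Cre against wild type had 0 to 1 genes called without single arrays, the 1 being Lyz1 without wild-type replicate 3. The F-test called 1 gene with median centring and with cyclic loess, and 0 to 1 without single arrays. Without Mb1-Cre replicates 1 and 2 the median of Mb1-Cre minus Sca1-Cre tumours moved from 0.53 to 0.16. For values near the dim range, as for Siglec1 and Gpnmb, signal over background limits the size of a difference.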
